A study of Mus musculus with 4 samples.

Results

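Superoxide dismutases and catalase are the enzymes that remove superoxide and hydrogen peroxide, and the genes described are Sod1, Sod2, Sod3 and Cat. They were chosen by symbol, as every probe set annotated to exactly 1 of these 4 names, which gave 13 probe sets for 4 of the 18193 genes that have a probe set of their own. Transcripts of mouse endometriotic lesions, which are uterine-type tissue growing at other sites, were measured on Affymetrix 3′ expression arrays. There were 2 arrays from mice on a casein diet, labelled control, and 2 from mice on a high-fat diet, labelled HFD. All arrays held lesion RNA, so neither eutopic uterus nor lesion-free tissue was compared. Strain, age, the make-up of the diets and the number of animals or lesions behind each array are not given in the labels used here. The p-values therefore measure only the spread between these samples, which may be technical. The question set by the series title is whether the high-fat diet goes with an altered redox and inflammatory status of the lesions.

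Superoxide is a radical made by the mitochondrial respiratory chain, by NADPH oxidases and by other oxidases. Superoxide dismutases turn it into hydrogen peroxide and oxygen, and catalase, glutathione peroxidases and peroxiredoxins then remove the peroxide. Sod1 encodes the copper-zinc enzyme of the cytosol, Sod2 the manganese enzyme of the mitochondrial matrix and Sod3 the secreted copper-zinc enzyme that binds to the extracellular matrix. Cat encodes catalase, a haem enzyme held mostly in peroxisomes. In endometriosis, oxidant stress is often linked to iron and haem from bleeding within lesions.

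The promoters of 3 of these genes are shown as background, and RefSeq held none for Sod3. Whether their motifs bear on the values of the arrays was not tested. Each run is the 250 bases before the transcription start on the gene's own strand, from RefSeq (GRCm38.p6). Capitals mark matches, on either strand, to the GC box GGGCGG, the CCAAT box CCAAT, the TATA box TATAAA and the core of the antioxidant response element TGACNNNGC. The forkhead motif GTAAACA was searched too and had 0 matches in the 3 runs.
Sod1, chr16:90220512-90220761, plus strand: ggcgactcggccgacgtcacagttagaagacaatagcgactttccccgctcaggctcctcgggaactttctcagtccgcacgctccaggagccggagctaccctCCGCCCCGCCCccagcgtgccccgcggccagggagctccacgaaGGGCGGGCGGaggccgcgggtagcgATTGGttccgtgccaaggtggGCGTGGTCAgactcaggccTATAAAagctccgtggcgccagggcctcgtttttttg
Sod2, chr17:13007589-13007838, plus strand: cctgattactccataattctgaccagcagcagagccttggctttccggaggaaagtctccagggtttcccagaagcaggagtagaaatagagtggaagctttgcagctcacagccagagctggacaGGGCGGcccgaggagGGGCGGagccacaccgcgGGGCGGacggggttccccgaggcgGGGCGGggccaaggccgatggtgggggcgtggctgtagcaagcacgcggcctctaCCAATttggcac
Cat, chr2:103485154-103485403, minus strand: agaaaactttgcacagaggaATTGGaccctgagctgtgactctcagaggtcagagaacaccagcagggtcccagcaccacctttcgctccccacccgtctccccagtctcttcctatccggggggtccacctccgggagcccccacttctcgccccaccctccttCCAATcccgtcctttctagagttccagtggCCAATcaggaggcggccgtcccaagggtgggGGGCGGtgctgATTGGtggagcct
The 3 runs differed in the motifs they hold. Sod1 had 4 GC boxes, of which neighbours overlap, 1 CCAAT box, 1 match to the antioxidant response element core and a TATA box that begins 37 bases before the start. Sod2 had 4 GC boxes and 1 CCAAT box, and Cat had 4 CCAAT boxes and 1 GC box. Among 32851 promoter windows of this length, 32.7% held a GC box, 33.8% a CCAAT box, 12.4% a TATA box, 10.2% the antioxidant response element core and 3.17% the forkhead motif. The GC content was 66.4% for Sod1, 63.6% for Sod2 and 62.0% for Cat, against a median of 52.4%. A match describes letters only and is no evidence of a bound factor.

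The arrays differed in markers of endometrial epithelium and of other tissues, both between the diets and within them. All 14 markers of endometrial epithelium and all 14 of endometrial stroma passed the filter on dim genes, which kept genes whose geometric mean intensity reached 33.9. The epithelium markers summed to 29640 and 20750 in the casein arrays and to 9087 and 14030 in the high-fat arrays. On the high-fat diet 1 of them had a larger and 13 had smaller values, where 48.6% of all genes tested had larger ones. The summed intensity of 10 gastric mucosa markers was 72110 in casein replicate 1 and 10490 in casein replicate 2, but 457.5 and 480.0 in the high-fat arrays. The summed intensity of 12 skeletal muscle markers was 29920 in high-fat replicate 1 and between 884 and 1098 in the other 3 arrays. All 11 endothelial markers had larger values on the high-fat diet, with sums of 1960 and 2611 in the casein arrays and 3177 and 3449 in the high-fat arrays. Casein replicate 1 stands apart in the gastric list and high-fat replicate 1 in the skeletal muscle list. The difference of each tested member is also given without them. Of the genes tested, 280 in casein replicate 1 and 14 in casein replicate 2 lay at least 1 log2 above every other array. In high-fat replicates 1 and 2 there were 77 and 60 such genes, so by this count these 2 arrays were alike. Median intensities lay between 55.1 and 56.5 on the 4 arrays, and the number of arrays limits the precision. An exact two-sided permutation test of 2 arrays against 2 cannot go below p = 0.333, so tests come only from limma's model across 12797 genes.

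None of the 3 members that could be tested had a difference between the diets that reached the limma threshold. Of the 4 members, 3 passed the filter (Sod1, Sod2 and Cat) and 0 were called by limma after Benjamini-Hochberg adjustment, where 0% of all genes tested were called (636 genes, or 4.97%, had an unadjusted p under 0.05). Sod2 and Cat, like 48.6% of all genes tested, had larger mean values on the high-fat diet, by 0.30 and 0.24 on the log2 scale, and Sod1 differed by -0.014. For these 3 genes the values of the diets overlapped, whereas they did not overlap for 36.0% of all genes tested. Sod3 was too dim to test.

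**Figure D1:**
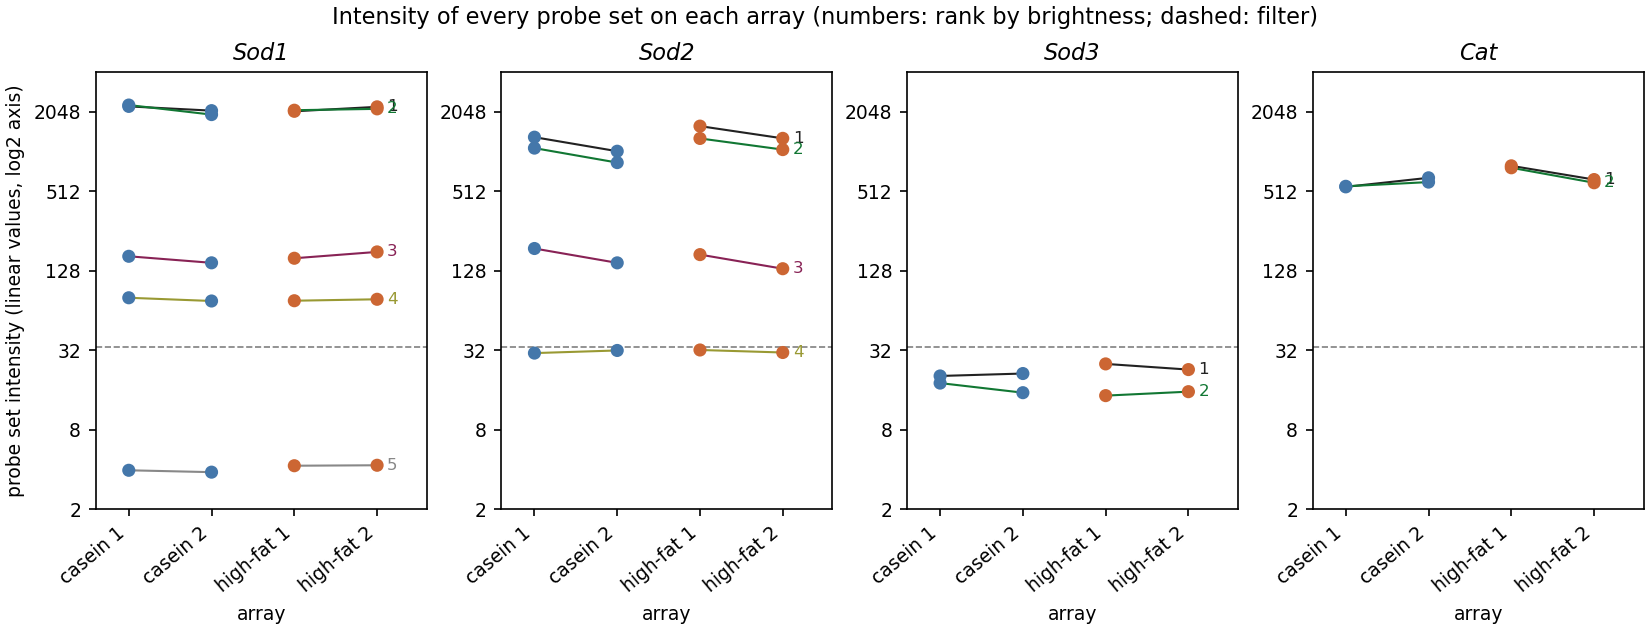
Intensity of the 13 probe sets of Sod1, Sod2, Sod3 and Cat (y axis, linear values on a log2 axis) on each of the 4 arrays (x axis; blue points, casein diet, and orange points, high-fat diet; lines join arrays of 1 diet and the dashed line is the filter at 33.9). The brightest probe set of Sod1 stays between 2071 and 2256, that of Sod2 peaks at 1599 and that of Cat at 799.7 in high-fat replicate 1, and both probe sets of Sod3 lie under the filter.

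Sod1, the cytosolic enzyme, had almost the same value on every array. The intensities of its brightest probe set were 2256 and 2096 in the casein arrays and 2071 and 2240 in the high-fat arrays. The highest and the lowest array belonged to different diets and lay only 0.12 log2 apart, a smaller range than for all but 10.6% of the genes tested. Its mean log2 intensity was 11.09 ± 0.08 on the casein diet and 11.07 ± 0.08 on the high-fat diet (SD, n = 2 each). The difference of -0.014 log2 had a standard error (SE) of 0.10 and a 95% interval from -0.31 to 0.28 (limma adjusted p = 0.985). As a ratio of high-fat to casein diet, this interval runs from 0.806 to 1.22. Without casein replicate 1 the difference was 0.039, and without high-fat replicate 1 it was 0.042, so its sign is not settled.

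The other probe sets of Sod1 gave the same picture at other brightness. The second brightest had intensities of 2311 and 1956 in the casein arrays and 2111 and 2162 in the high-fat arrays. Both values of the high-fat diet fell between those of the casein diet. The third, at 164.9 and 147.1 against 159.3 and 178.0, differed by 0.11 (SE 0.12), and the fourth by -0.016 (SE 0.10). The fifth lay at 3.81 to 4.29, far below the filter, and is not read as a level. Across the 5 probe sets, 3 had a difference above 0 and 4 passed the filter.

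Sod2, the mitochondrial enzyme, varied more between arrays than Sod1, within each diet as well as between them. Its brightest probe set had intensities of 1319 and 1032 in the casein arrays and 1599 and 1292 in the high-fat arrays. High-fat replicate 1 was highest and casein replicate 2 lowest, while high-fat replicate 2 lay just below casein replicate 1. The mean log2 intensity was 10.19 ± 0.25 on the casein diet and 10.49 ± 0.22 on the high-fat diet (SD, n = 2 each). The difference of 0.30 (SE 0.19) had a 95% interval from -0.24 to 0.84, or a ratio from 0.845 to 1.80 (limma unadjusted p = 0.195, adjusted p = 0.863). A difference at or above 0.30 in size was found for 19.5% of all genes tested. It was 0.48 without casein replicate 1, 0.12 without casein replicate 2, 0.15 without high-fat replicate 1 and 0.46 without high-fat replicate 2.

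The probe sets of Sod2 did not all point the same way. The second brightest, at 1090 and 846.2 in the casein arrays and 1290 and 1062 in the high-fat arrays, repeated the order of the arrays and differed by 0.29 (SE 0.18). The third had intensities of 188.9 and 147.0 in the casein arrays and 169.8 and 132.7 in the high-fat arrays, and differed by -0.15 (SE 0.20). In this probe set high-fat replicate 2 was the lowest array and casein replicate 1 the highest. The fourth lay at 30.4 to 32.1, under the filter. The intervals of all 4 probe sets included 0, and which transcript form each one reads was not examined.

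**Figure D2:**
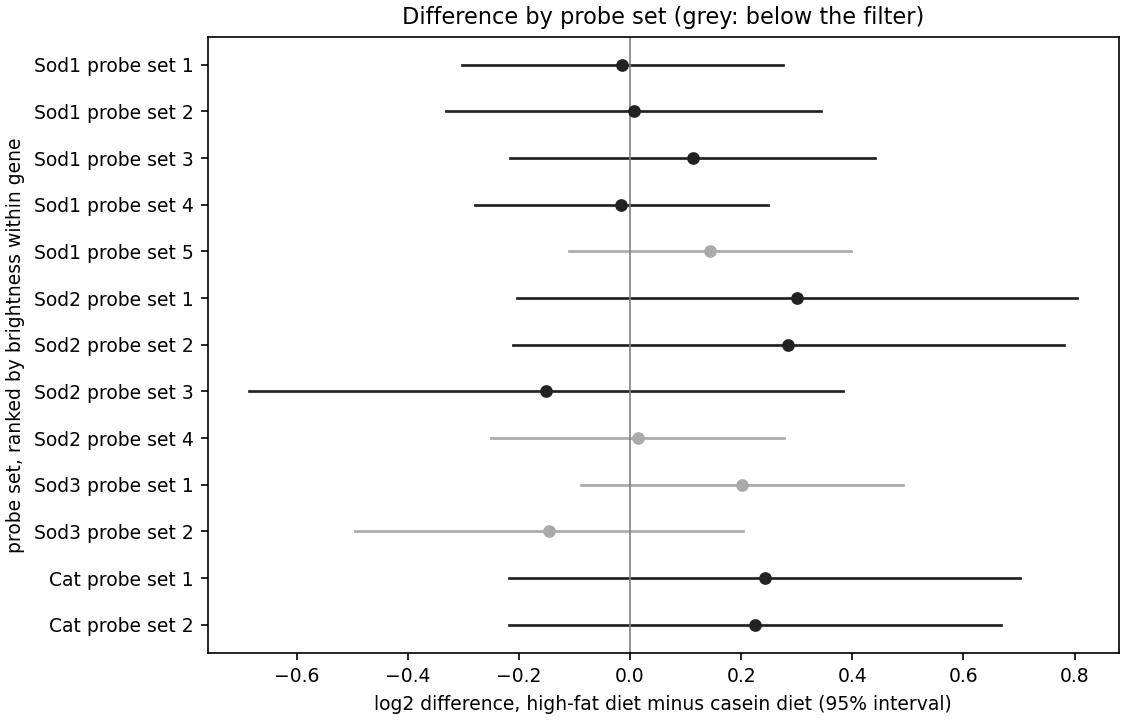
Log2 difference of high-fat minus casein diet (x axis; points, with 95% intervals from a limma fit of all non-control probe sets) for each of the 13 probe sets (y axis, ranked by brightness within the gene; grey, below the filter). Every interval includes 0, and the third probe set of Sod2 (-0.15) and the second of Sod3 (-0.15) lie on the other side of 0 from the brightest probe set of the same gene (0.30 and 0.20), as do the second, the third and the fifth of Sod1 (0.0070, 0.11 and 0.14, against -0.014).

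Sod3, the secreted enzyme, had dim signals on all 4 arrays. Its brighter probe set had intensities of 20.4 and 21.3 in the casein arrays and 25.2 and 22.8 in the high-fat arrays. Both high-fat arrays were above both casein arrays here, by a mean of 0.20 log2, as were those of 16.6% of the genes tested. The dimmer probe set had intensities of 18.0 and 15.2 in the casein arrays and 14.5 and 15.5 in the high-fat arrays, a difference of -0.15. The 2 probe sets thus disagreed in sign, and without detection calls a level this dim cannot be told from background. When no filter was applied, limma gave the brighter probe set an unadjusted p of 0.128 and an adjusted p of 0.853. Vascular smooth muscle is a known source of this enzyme, and all 12 smooth muscle markers tested had smaller values on the high-fat diet (summed intensities of 34460 and 39630 in the casein arrays and 24810 and 21770 in the high-fat arrays). The part of smooth muscle in the Sod3 values was not tested.

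Cat, for catalase, was highest in a single array. Its brightest probe set had intensities of 554.0 and 648.8 in the casein arrays and 799.7 and 629.3 in the high-fat arrays. High-fat replicate 1 stood above the rest, and high-fat replicate 2 lay below casein replicate 2. The mean log2 intensity was 9.23 ± 0.16 on the casein diet and 9.47 ± 0.24 on the high-fat diet (SD, n = 2 each). The difference of 0.24 (SE 0.17) had a 95% interval from -0.25 to 0.74, or a ratio from 0.840 to 1.67 (limma unadjusted p = 0.239, adjusted p = 0.863). Without high-fat replicate 1 it was 0.070, and without casein replicate 1 it was 0.13. Without high-fat replicate 2 and without casein replicate 2 it was 0.42 and 0.36. The second probe set of Cat, at 559.3 and 602.1 against 773.0 and 595.1, differed by 0.22 (SE 0.16), with the same array highest.

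**Figure D3:**
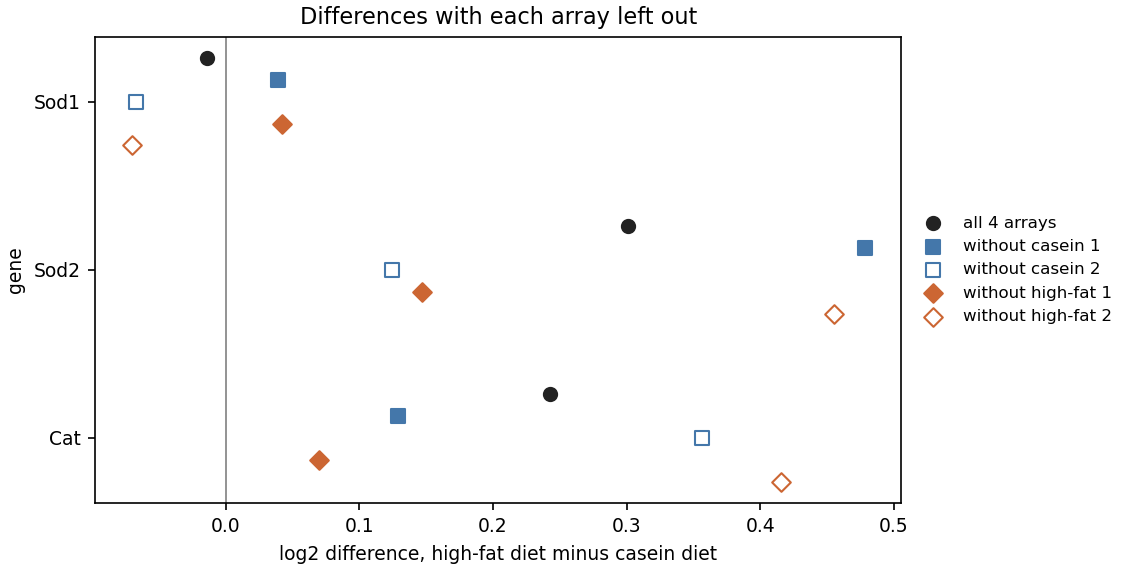
Log2 difference of high-fat minus casein diet (x axis) for Sod1, Sod2 and Cat (y axis) from all 4 arrays (black circles) and with each array left out (blue squares, a casein array; orange diamonds, a high-fat array). Sod1 falls on both sides of 0 (-0.07 to 0.04), while Sod2 (0.12 to 0.48) and Cat (0.07 to 0.42) stay above it.

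Ratios within an array show whether the members changed unequally. The log2 ratio of Sod2 to Sod1, relative to its mean over the 4 arrays, was -0.034 and -0.28 in the casein arrays and 0.37 and -0.053 in the high-fat arrays. High-fat replicate 1 was set apart, and high-fat replicate 2 lay below casein replicate 1. The ratio of Cat to Sod1 was -0.30 and 0.039 in the casein arrays and 0.36 and -0.10 in the high-fat arrays, again highest in high-fat replicate 1. The ratio of Sod2, which makes hydrogen peroxide, to Cat, which removes it, was 0.26 and -0.32 in the casein arrays and 0.010 and 0.048 in the high-fat arrays. Both high-fat values of this ratio fell between the casein values, and its mean difference was 0.058. None of these 3 ratios separated the diets.

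Some lists of markers of other cell types lay high on the array where Sod2 and Cat were highest, and others lay low. This array was high-fat replicate 1, where 23.4% of all genes tested were highest. There the skeletal muscle list lay 4.36 log2 above its mean over the arrays and the neutrophil list 0.69. The endometrial stroma list lay 0.19 above its mean, the macrophage list 0.18 and the endothelium list 0.16. The other lists lay below their means. By mean log2 level, the order of the arrays for Sod2 was shared by the macrophage list, 1 of 14 lists compared, whose 12 markers summed to 28290 and 26490 in the casein arrays and 32910 and 25880 in the high-fat arrays. By these sums the lowest places change hands between casein replicate 2 and high-fat replicate 2. Of the 12 markers, Adgre1, C1qb, C1qc and Fcgr1 had the array order of Sod2 and the others did not. On the high-fat diet 10 had larger and 2 smaller values, and Cd163 differed by -1.06 (SE 0.10). The order for Sod2 was shared by 2.33% of all genes tested, and 24 orders are possible. The order for Cat was shared by 6.43% of all genes, and by the endometrial stroma and neutrophil lists. The stroma list had sums of 44670 and 52190 against 53280 and 48010. The neutrophil list had 5073 and 11150 against 9437 and 5868, so casein replicate 2 had its largest sum. Of these sums Ltf, also in the endometrial epithelium list, gave 3833 and 9294 against 3940 and 4300. No marker of these lists is listed at 0, and of the 10 neutrophil markers on the array Mpo, Elane and Ngp lay below the filter. Of the 6 erythroid markers on the array, from a lineage rich in catalase, 0 passed the filter, and their summed intensity lay between 88.3 and 96.5. By mean log2 level the adipocyte list lay highest in high-fat replicate 2 (0.64) and lowest in high-fat replicate 1 (-0.38). Its summed intensities were 3689 and 6381 in the casein arrays and 5329 and 7144 in the high-fat arrays, so by sums casein replicate 1 was lowest, and Cidec, Cidea and Lep of its 10 genes lay below the filter. The part of these cell types in the values of Sod2 and Cat was not tested. In bulk lesions, fewer cells of a type and less RNA per cell cannot be told apart.

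**Figure D4:**
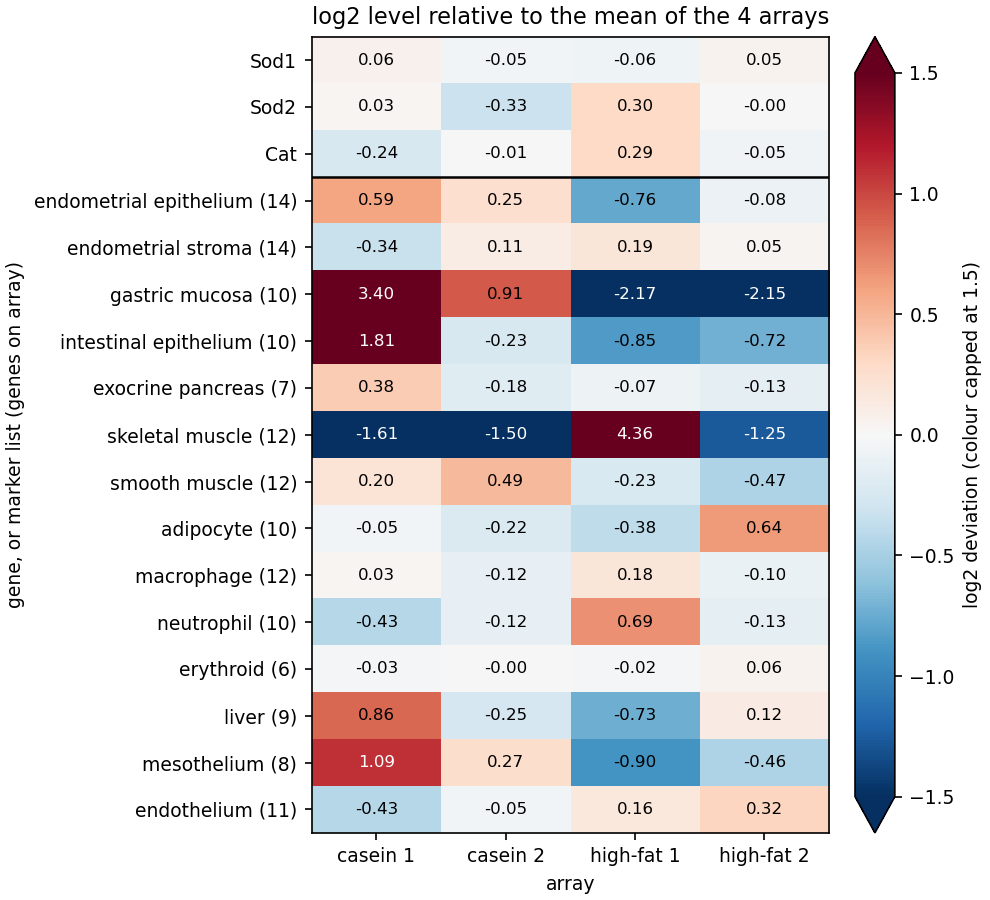
Log2 level relative to the mean of the 4 arrays (colour and printed values, colour capped at 1.5) on each array (x axis) for Sod1, Sod2 and Cat and for 14 marker lists (y axis; means over the genes on the array, their number in brackets). High-fat replicate 1 holds the highest values of Sod2 (0.30), Cat (0.29) and the skeletal muscle list (4.36), and casein replicate 1 those of the gastric list (3.40).

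Genes with the profile most like each member were ranked by the Euclidean distance of their centred log2 values over the 4 arrays. For Sod2 they were Tlr2, the receptor for bacterial lipoproteins (distance 0.049), Htra1, a secreted serine protease (0.071), and Ncapg2, a condensin subunit (0.087), and these 3 were the only genes tested within 0.1. Tlr2 had intensities of 380.1 and 286.0 in the casein arrays and 447.2 and 356.5 in the high-fat arrays, the order of the arrays seen for Sod2. For Cat the nearest were Ptp4a3 (0.036), Specc1 (0.036) and Stox2 (0.038), with 62 genes within 0.1. The flat profile of Sod1 had 949 genes within 0.1, led by Gm5617, Wdr46 and Naa25 (0.011, 0.012 and 0.017). For the dim Sod3 the nearest were Mapre2, Uaca and Mgat1 (0.0062, 0.017 and 0.020), with 272 genes within 0.1. Over 4 arrays such likeness is a description only.

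Among the genes that supply metal to these enzymes, 0 were called, and most copper genes had smaller and most manganese genes larger values on the high-fat diet. Of 13 genes of copper supply, 12 were tested, 3 with larger and 9 with smaller values in the high-fat arrays, 0 called, with a median difference of -0.036 against -0.0051 for all genes tested, of which 48.6% had larger values. The median was 0.011 without casein replicate 2, 0.014 without high-fat replicate 1 and -0.10 without high-fat replicate 2. The metallothionein genes Mt1 and Mt2, whose products bind zinc and copper, differed by 0.66 (SE 0.42) and 0.72 (SE 0.47). Mt1 had intensities of 1852 and 4089 in the casein arrays and 4380 and 4304 in the high-fat arrays, so that casein replicate 1 alone was low. Sco1, for copper delivery to cytochrome oxidase, differed by -0.32 (SE 0.24). Ccs, the chaperone that loads copper into SOD1, had intensities of 279.0 and 304.5 in the casein arrays and 269.4 and 302.0 in the high-fat arrays, a difference of -0.031 (SE 0.12). Atp7a, the pump that supplies copper to SOD3 in the secretory pathway, read 557.7 on both casein arrays and 655.8 and 579.7 on the high-fat ones, a difference of 0.14 (SE 0.11). Ccs and Atp7a were named for their role, outside the naming rule.

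Of 8 genes of manganese supply and SOD2 deacetylation, 7 were tested, 6 with larger and 1 with smaller values, 0 called, with a median of 0.097. The median was -0.026 without casein replicate 1 and -0.036 without high-fat replicate 1. Sirt3, the mitochondrial deacetylase that acts on SOD2, had intensities of 109.9 and 114.2 in the casein arrays and 115.4 and 124.3 in the high-fat arrays, a difference of 0.097 (SE 0.099). The diets did not overlap for Sirt3, but the gap between them was narrower than the spread within the high-fat diet. The mitochondrial carrier genes Slc25a39 and Slc25a37 differed by -0.16 (SE 0.11) and 0.10 (SE 0.13).

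Peroxisomal genes, which build the compartment that holds catalase, had more smaller than larger values on the high-fat diet, and 0 were called. Of 17 genes of peroxisome assembly and import, 14 were tested, 4 with larger and 10 with smaller values, where 48.6% of all genes tested had larger ones, with a median of -0.070. The median was 0.0084 without high-fat replicate 1, -0.12 without casein replicate 2 and -0.16 without high-fat replicate 2. Pex26, an anchor of the import machinery, had intensities of 194.8 and 204.0 in the casein arrays and 154.6 and 173.3 in the high-fat arrays, a difference of -0.28 (SE 0.11, limma unadjusted p = 0.0634, adjusted p = 0.863). Abcd3, a fatty acid transporter of the peroxisomal membrane, differed by -0.56 (SE 0.34), with 1644 in casein replicate 1 and 765.4 to 892.4 in the other arrays. Pex19, an import factor for membrane proteins, differed by -0.13 (SE 0.090). Pex5, the import receptor that carries catalase into the peroxisome and was named for that role, had intensities of 193.0 and 193.9 in the casein arrays and 203.4 and 193.0 in the high-fat arrays, a difference of 0.035 (SE 0.093).

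Among 11 genes of peroxisomal oxidases and related enzymes, 4 were tested and all 4 were smaller in value on the high-fat diet, 0 called, with a median of -0.15. The median was -0.71 with the filter at the 60th percentile or with the second brightest probe sets, which left 2 genes, -0.078 with no filter, and -0.30 without casein replicate 2 and -0.099 without high-fat replicate 2. Uox, for urate oxidase, differed by -1.18 (SE 0.49). Its intensities were 508.3 in casein replicate 1, 203.5 in casein replicate 2, then 144.7 and 139.1 in the high-fat arrays. Phyh, for phytanoyl-CoA hydroxylase, differed by -0.23 (SE 0.27) and Ddo, for D-aspartate oxidase, by -0.078 (SE 0.11). Phyh is a peroxisomal enzyme that does not itself make hydrogen peroxide.

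The other peroxide-removing enzymes had differences in both directions. Of 12 glutathione peroxidases and peroxiredoxins, 9 were tested, 5 with larger and 4 with smaller values, 0 called, with a median of 0.046. Gpx3, the secreted glutathione peroxidase, had a log2 difference of 1.28 (SE 0.16), against 0.24 for Cat. Gpx1, the cytosolic form, differed by -0.24 (SE 0.14) and Gpx2, the epithelial form, by -0.86 (SE 0.23). Gpx1 was about as far from 0 as Cat, and the difference between Cat and these genes was not tested. The median was 0.20 with the mean of all probe sets of a gene, or with the second brightest, in place of the brightest, and from 0.018 to 0.14 with 1 array left out.

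Producers of superoxide and peroxide were likewise divided. Of 13 genes, 8 were tested, 3 with larger and 5 with smaller values, 0 called, with a median of -0.079. The median was 0.080 without high-fat replicate 2 and -0.23 without high-fat replicate 1. Noxo1, an organiser of NADPH oxidase, had intensities of 146.8 and 219.1 in the casein arrays and 116.3 and 90.3 in the high-fat arrays, a difference of -0.81 (SE 0.26, limma unadjusted p = 0.0399, adjusted p = 0.863). Nox4, an oxidase that releases mainly hydrogen peroxide, differed by 0.52 (SE 0.31), and Rac2, a GTPase of the phagocyte oxidase, by -0.18 (SE 0.13).

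Regulators known to act on these genes were divided in direction. Of 15 regulators, 13 were tested, 6 with larger and 7 with smaller values, 0 called, with a median of -0.0057. It was 0.070 without casein replicate 1, 0.0087 without high-fat replicate 2 and -0.034 without casein replicate 2. The forkhead factor gene Foxo3, a known activator of Sod2 and Cat, had intensities of 509.1 and 705.4 in the casein arrays and 767.4 and 757.7 in the high-fat arrays, a difference of 0.35 (SE 0.19). The diets did not overlap for Foxo3, with casein replicate 1 lowest. Foxo4 differed by 0.26 (SE 0.11) and Ppara, for a fatty acid-sensing receptor of peroxisomal genes, by 0.24 (SE 0.10), and the diets did not overlap for these genes as well. In all, 4 of the 13 lay higher with no overlap and 0 lower, where 16.6% and 19.3% of all genes did, and the 3 named were picked by their p. Each of the 3 had an adjusted p of 0.863 in limma.

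Genes that respond to NF-kB, a factor that induces Sod2 in inflammation, went both ways. Of 13 genes all were tested, 5 with larger and 8 with smaller values, 0 called, with a median of -0.12. With no overlap, 5 lay lower and 0 higher, where 19.3% and 16.6% of all genes did. The median was -0.010 without high-fat replicate 2, -0.065 without casein replicate 1 and -0.23 without high-fat replicate 1. The neutrophil chemokine gene Cxcl1 and the cytokine gene Il1b, named after their values were seen, differed by 0.56 (SE 0.39) and 0.22 (SE 0.41). Their highest intensity was in high-fat replicate 1, as for Sod2, Nfkbia and Tnf. The order of their other arrays was not that of Sod2. Vcam1, a leukocyte adhesion molecule, had intensities of 1155 and 906.7 in the casein arrays and 707.6 and 652.9 in the high-fat arrays, a difference of -0.59 (SE 0.16, limma unadjusted p = 0.0231, adjusted p = 0.863). Traf1, a signalling adaptor, differed by -0.60 (SE 0.18) and Tnfaip3, a feedback inhibitor, by -0.26 (SE 0.13). For Vcam1, Traf1 and Tnfaip3 the highest array was casein replicate 1, as it was for Nfkbiz, Icam1, Birc3, Relb, Nfkb2 and Ccl2. Among all genes tested, 33.3% were highest in casein replicate 1 and 23.4% in high-fat replicate 1.

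**Figure D5:**
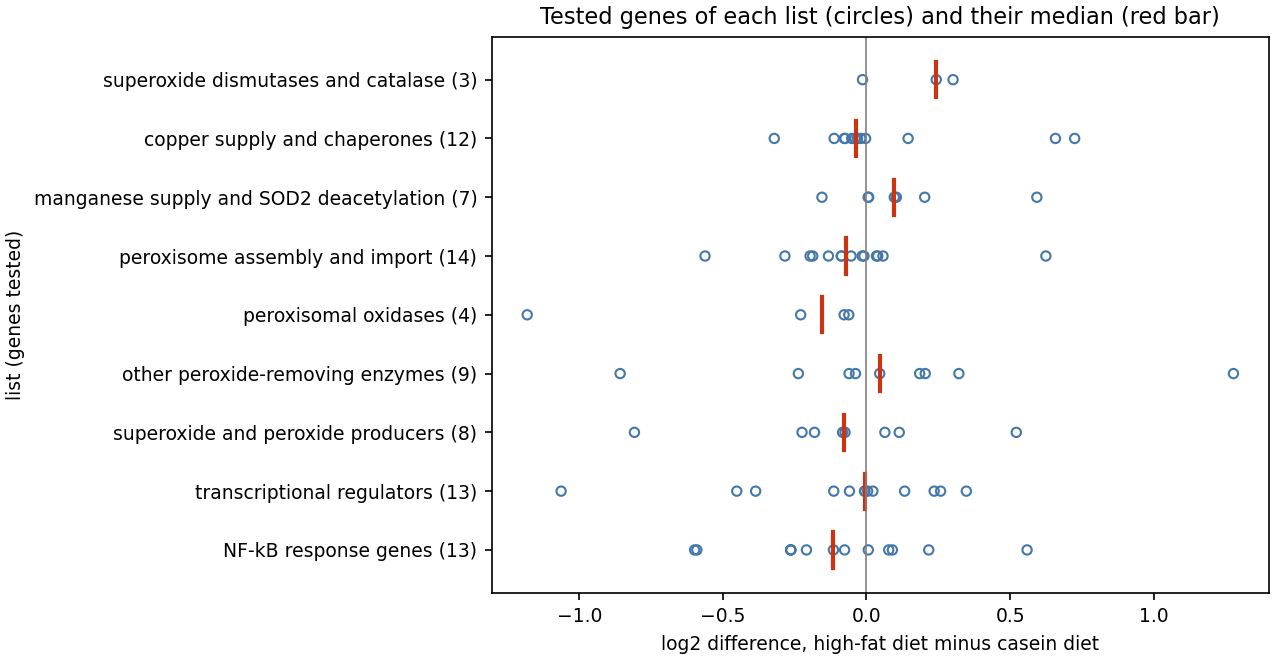
Log2 difference of high-fat minus casein diet (x axis) for each tested gene (circles) of the member list and 8 related lists (y axis, with the number of genes tested) and the median of each list (red bars). The medians of the 8 related lists lie between -0.15 and 0.10, and single genes reach from -1.18 (Uox) to 1.28 (Gpx3).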

How the data were processed

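Per the labels' protocols, RNA came from a small-sample isolation kit and biotin-labelled aRNA was made from 0.1 µg. The authors deposited 1 linear intensity per probe set and array, already normalised across arrays; the submitters' processing notes name GCOS and RMA, without versions, roles or order. Detection calls, scan dates and slides were not used here.

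Of 45101 probe sets, 64 were controls, 34945 had 1 gene symbol, 932 several and 9160 none. Symbols were set against the GRCm38.p6 gene table through gene identifiers (34741 matched, 0 changed). Log2 was taken with no pseudocount. The probe set with the highest mean log2 value stood for its gene, and the 12797 genes at or above the 40th percentile of non-control probe sets (intensity 33.9) were tested with limma 3.58.1 (R 4.3.3; lmFit, eBayes, two-sided, Benjamini-Hochberg, threshold 0.05, 3.80 total degrees of freedom). Other probe sets come from a fit of all non-control probe sets. Groups and replicate numbers come from the titles. The fit was tested on simulated data.

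Named genes are the 4 members, the 3 smallest p-values of each pathway list and the 3 nearest profiles of each member, plus Ccs, Atp7a and Pex5 for their role. Ltf, Cxcl1, Il1b, the further NF-kB response genes and the named macrophage markers were named after their values were seen. Members, lists and markers were chosen with earlier results of these data known. Genes without a probe set of their own symbol alone were not used. RefSeq held promoters for 3 of the 4 members. Alternatives were the replicate block, 2 other normalisations, other filters, probe sets, pseudocounts (1 and 16), array weights and variance priors, and leaving out each array. Figures used matplotlib 3.10.9.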

Additional observations from a re-analysis of the deposited data

How the results depend on the processing

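Sod2, Cat and Sod1 stayed short of the threshold under all 16 alternatives. Sod2 kept its sign throughout (0.11 to 0.32 over settings that keep all arrays, and 0.12 to 0.48 with 1 array left out), as did Cat (0.22 to 0.25, and 0.070 to 0.42). Sod1 changed sign with quantile normalisation (0.0084), the mean of all probe sets (0.047) and the second brightest probe set (0.0070), and ranged from -0.070 to 0.042 with 1 array left out. The untested Sod3 was 0.028 with the mean of its probe sets, -0.15 with the second probe set, 0.12 with a pseudocount of 16, and 0.13 to 0.27 with 1 array left out.

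The number of genes called by limma was 0 in 15 of 16 alternatives and 17 without casein replicate 2 (1825 genes at an unadjusted p under 0.05, 0 of the 3 tested members called), so it ranged from 0 to 17 with 1 array left out. With 1 array of a diet left, that array is assumed to vary like the other diet. With the replicate number as a block, 0 genes were called (576 at an unadjusted p under 0.05). Sod2 then had an SE of 0.11, against 0.19 without the block (limma unadjusted p = 0.0753, adjusted p = 0.911). The SE was larger with the block for Cat (0.20 against 0.17) and Sod1 (0.13 against 0.10). The labels do not state that same-numbered arrays are pairs, so the numbers were not taken as pairs. The deviations of casein and high-fat replicate 1 from their diet means had r = -0.022 across genes. With 2 arrays per diet this value cannot exclude pairing. With 1 array left out, the medians of copper supply, manganese supply, peroxisome assembly, oxidant producers and regulators took either sign, while those of peroxisomal oxidases and NF-kB response genes stayed below 0 and that of other peroxide-removing enzymes above it. Dim signal limits Sod3, and 2 arrays per diet limit the rest.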
